A study of Bos taurus with 6 samples.

Results

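The genes described here encode bone morphogenetic proteins (BMPs) and transforming growth factor beta (TGF-beta) ligands, the BMP receptors and secreted BMP antagonists, 10 genes of the 15229 read on the array. They were chosen by gene symbol: BMP2, BMP4, BMP6, TGFB1 and TGFB2 as ligands, BMPR1A, BMPR1B and BMPR2 as receptors, and GREM1 and NBL1 as antagonists. The platform annotation gives them 16 probes, 3 for each receptor and 1 for each other gene, and each gene was read by its brightest probe. All 10 symbols are current in RefSeq. Bovine granulosa cells came from follicles of 2 to 6 mm of Holstein crossbred animals at an abattoir, and the labels do not say how many animals made up a culture. Cells of both groups were kept in MEM/F12 for 5 days with no serum, in the presence of 10 ng/ml FSH and 10 ng/ml insulin. One group then received 10 ng/ml of fibroblast growth factor 18 (FGF18) for 2 h, and the other received none. The source name of the control ends in T0, and its harvest, at the start or after 2 h, is not stated. Each of 3 biological replicates, numbered in the sample titles, was hybridised on 2 two-colour arrays of opposite dye orientation, 6 arrays in all.

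BMPs and TGF-betas are secreted dimers that assemble type I and type II serine/threonine kinase receptors. The activated receptors phosphorylate SMAD proteins, SMAD1, SMAD5 and SMAD9 for most BMPs and SMAD2 and SMAD3 for TGF-beta, which enter the nucleus with SMAD4. In the ovary, granulosa cells receive BMPs from the theca, the oocyte and themselves, and BMPs are known to restrain progesterone production and luteinisation while follicles grow. FGF18 is made by theca cells in cattle and is known to lower oestradiol secretion by granulosa cells. The comparison asks which of these transcripts differed after exposure to FGF18.

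Ratios are given on the log2 scale as FGF18 over control (mean ± SD over 3 replicates), and levels are log2 normalised intensities of 1 probe, which can be compared between samples but not between genes. A spot was called above background where its intensity was more than 2 SD over the average of the 153 negative controls, and a probe needed 3 such arrays or more in 1 of the conditions. The share of gene probes above background ran from 45.7% to 73.5% by array and dye. Precision is limited by how few arrays there are. Of the 10 genes, 8 had a brightest probe above background, and GREM1 and TGFB2 did not. Over all genes it was 12200 of 15229, and the marker counts below are to be read beside that share. Arrays with the same replicate number correlated at 0.669, 0.765 and 0.27 in replicates 1, 2 and 3 over 30837 probes above background. Replicate 1 correlated at -0.239 with replicate 2 and at -0.039 with replicate 3, and replicates 2 and 3 at 0.384. These correlations are across probes, which are not independent. Of 10 granulosa cell markers 8 were above background, including FSHR, INHA and AMH, while FOXL2 and HSD17B1 had no spot above it. CYP19A1 was dim (mean log2 6.72), above background on 2 of 6 arrays for FGF18 and 4 of 6 for control. The summed normalised intensity of the granulosa list ran from 33900 to 44260 in FGF18-treated and from 31760 to 60780 in control replicates. Its brightest probes were GATA4, CYP11A1 and NR5A2. In replicates 1, 2 and 3 NR5A2 had ratios of 0.50, -2.81 and -1.33, and CYP11A1 had -1.43, 0.43 and 0.52. Of the 10 markers, 7 had a mean ratio above 0 and 3 below. All 10 markers of theca and stroma were above background as well, with sums from 71630 to 95260 with FGF18 and from 74170 to 97490 in control replicates. A sum rests mostly on the brightest probes, here PDGFRA and LUM (mean log2 14.79 and 14.68), while CYP17A1 lay at 6.75. Sums can be compared between samples but not between cell types. Of 8 leukocyte markers 6 were above background, PTPRC and CD68 on all 12 spots, with CSF1R and CD79A above it on none. Their sums ran from 2963 to 3512 with FGF18 and from 2709 to 4718 in control replicates. PTPRC, the common leukocyte antigen CD45, had ratios of 0.42, -1.46 and -0.91 in replicates 1, 2 and 3. Other markers of the list did not follow it, with 0.80, -0.68 and 0.17 for CD68 and 0.23, 0.43 and -0.08 for AIF1. Of the 8 leukocyte markers 4 had a mean ratio above 0 and 4 below, with a median of 0.024. Endothelial markers (6 of 8 above background, PECAM1 and TIE1 on no spot) summed to 1070 to 1128 with FGF18 and 1030 to 1132 in control replicates. Oocyte markers (5 of 8, GDF9 and OOSP1 on no spot) summed to 898.5 to 2288 and 903.3 to 3627. The part of other cell types in the ratios of the members was not tested. In bulk RNA, fewer cells of a type and less RNA per cell cannot be told apart.

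No member passed the test. With limma and Benjamini-Hochberg adjustment over all genes, 0 of 10 members had an adjusted p under 0.05, where 0% of the 15229 genes did. At an unadjusted p under 0.05 there were 2 of 10, TGFB1 and NBL1, both higher with FGF18, where 3.49% of all genes and 4.32% of those above background reached it. Of the 10 members, 5 had ratios of 1 sign across the 3 replicates, as did 24.1% of all genes. TGFB1, GREM1 and NBL1 were above 0 in every replicate (12% of all genes) and BMP4 and BMPR1A were below 0 (12% of all genes). TGFB1 and NBL1 were also above 0 on all 6 arrays, 2 of 10 members where 7.2% of genes kept 1 sign throughout, 4.47% above 0. None of the 10 was below 0 on all 6 arrays, where 2.73% of genes were. The median ratio of the members was -0.05, and that of all genes was -0.0082. With median centring of arrays the members' median was 0.0051, so it has no settled sign. Levels in FGF18-treated and control cells overlapped for each of the 10 members, where they did not overlap for 5.82% of all genes.

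**Figure D1:**
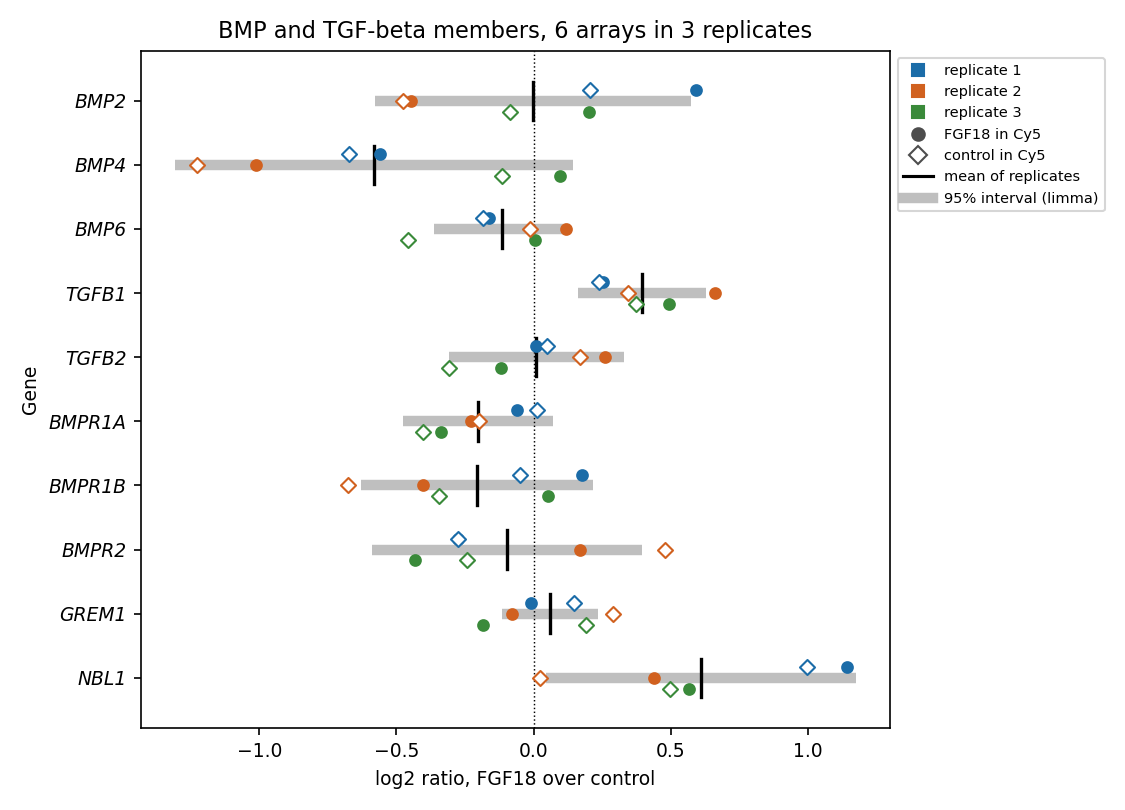
Log2 ratio of FGF18 over control (x axis) for each of the 10 genes (y axis), with a filled circle for each array with FGF18 in Cy5 and an open diamond for each array with the control in Cy5, coloured by replicate. Black ticks are means of 3 replicates and grey bars 95% intervals from limma. TGFB1 and NBL1 lie above 0 on all 6 arrays, and the points of BMP4 separate by replicate rather than by dye.

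Among the ligands, TGFB1 had the ratio with the smallest unadjusted p of the 10 genes. TGF-beta 1 is secreted in a latent complex and signals through TGFBR1 and TGFBR2 to SMAD2 and SMAD3. Its level in control cells was 6.36, 6.72 and 6.88 in replicates 1, 2 and 3, and in FGF18-treated cells it was 6.61, 7.22 and 7.32. FGF18-treated cells were higher within each replicate, but the groups overlapped because replicate 1 was low in both conditions. The replicate ratios were 0.25, 0.50 and 0.43, a mean of 0.40 ± 0.13 (n = 3), or 1.32-fold, with a 95% interval from 0.16 to 0.63, an unadjusted p of 0.0108 and an adjusted p of 0.986 in limma. Arrays with FGF18 in Cy5 gave a mean of 0.47, and arrays with the control in Cy5 gave 0.32. The probe was dim, above background on 4 of 6 arrays for FGF18 and 3 of 6 for control. In replicate 1 it was above background in neither condition. Background correction moved the ratio most, from 0.28 with no correction to 0.55 with an offset of 16.

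TGFB2, the second TGF-beta ligand, was not above background on any of its 12 spots, so no fold is given. Its measured level averaged 6.29 ± 0.15 in FGF18-treated and 6.28 ± 0.12 in control cells (SD, n = 3). Whether TGFB2 differed was not detectable at this signal.

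BMP4, which signals through BMPR1A or BMPR1B with BMPR2 to SMAD1, SMAD5 and SMAD9, had the lowest mean ratio of the 10 genes. Its control levels were 9.75, 10.78 and 9.85 in replicates 1, 2 and 3, and its levels with FGF18 were 9.14, 9.66 and 9.85. Replicate 2 had the highest control level and the largest difference, while replicate 3 showed nearly equal levels. The ratios were -0.62, -1.12 and -0.0084, a mean of -0.58 ± 0.56 (n = 3), or 1.5-fold lower. The 95% interval ran from -1.31 to 0.15 and the adjusted p in limma was 0.986. On single arrays the ratio ran from -1.23 to 0.10 and was below 0 on 5 of 6. It averaged -0.49 over arrays where FGF18 carried Cy5 and -0.67 over the others. The arrays of a replicate differed by at most 0.22, whereas the replicates spanned 1.11. Without replicate 2 the mean was -0.31, and without replicate 3 it was -0.87. The probe was above background on all 12 spots. Of the genes above background, 2.25% had a mean ratio of larger size than BMP4 in either direction, and 13.6% had a larger SD.

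BMP2, a ligand of the same subgroup as BMP4 that granulosa cells themselves express, had a mean ratio near 0 that hid opposite replicates. Its control levels were 14.43, 15.12 and 14.76 and its levels with FGF18 were 14.83, 14.66 and 14.82 in replicates 1, 2 and 3. The ratio was 0.40 in replicate 1, -0.46 in replicate 2 and 0.06 in replicate 3, a mean of -0.0014 ± 0.43 with a 95% interval from -0.58 to 0.57 (n = 3). On the linear scale the interval ran from 0.671-fold to 1.49-fold. Without replicate 2 the mean was 0.23, and without replicate 1 it was -0.20. Both arrays of replicate 2 were below 0 (-0.45 and -0.48) and both arrays of replicate 1 above 0 (0.59 and 0.21). BMP2 was among the brightest probes, with only 0.393% of gene probes brighter. Its spots measured 19640 to 35400, where the brightest gene spot per array and dye lay between 35930 and 44299. No spot had a median pixel at or above 60000.

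BMP6, made by oocytes and granulosa cells and a ligand that can signal through ACVR1, showed smaller differences. Its control levels were 9.97, 10.22 and 10.60, and its levels with FGF18 were 9.80, 10.27 and 10.38. The ratios of -0.17, 0.05 and -0.23 gave a mean of -0.12 ± 0.15 (n = 3), with a 95% interval from -0.36 to 0.13. In replicate 3 the swapped arrays gave 0.0061 and -0.46, a gap of 0.46 that exceeded the range between replicates of 0.28. By dye orientation, the mean was -0.013 where FGF18 carried Cy5 and -0.22 where the control did.

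**Figure D2:**
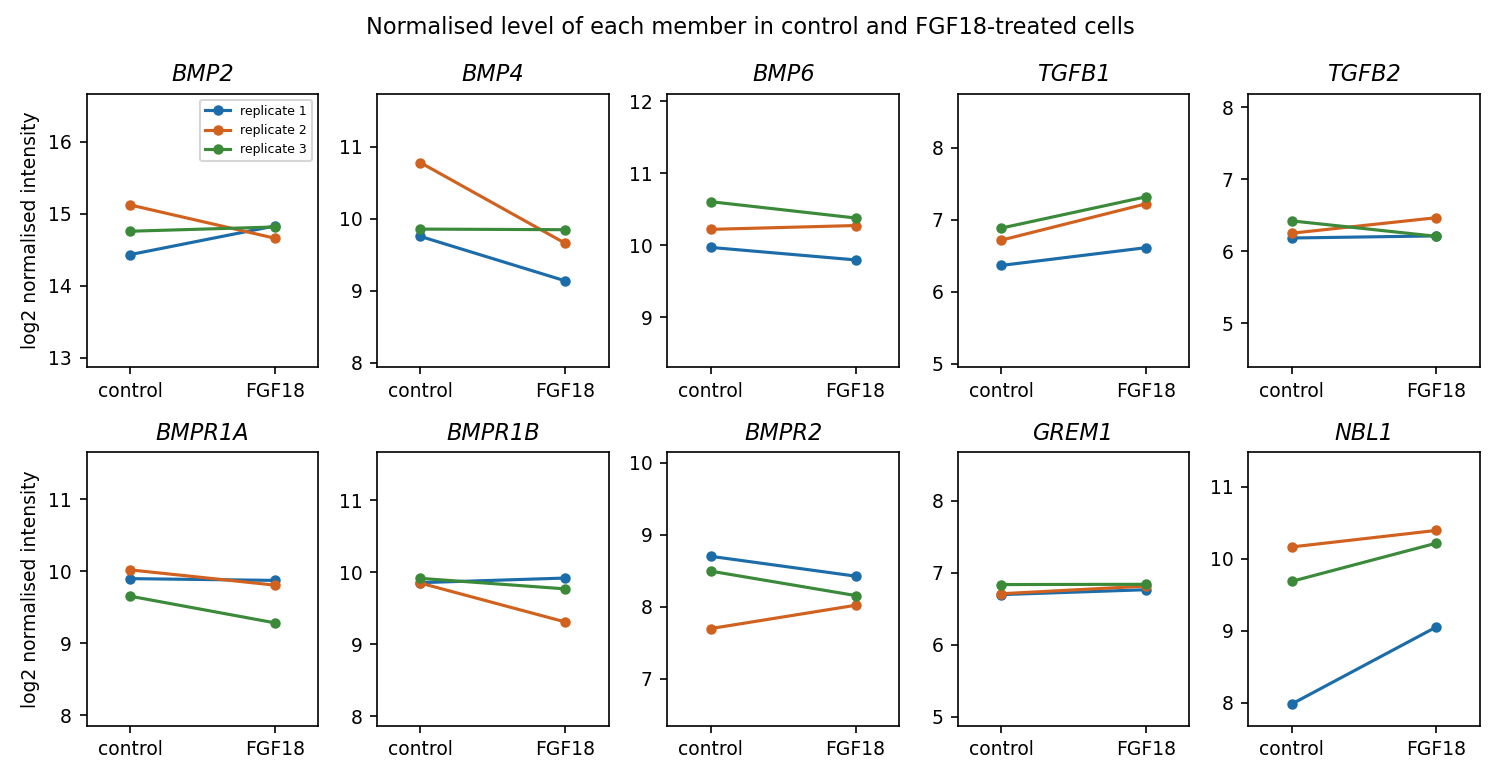
Log2 normalised intensity (y axis, the same span in every panel) of each of the 10 genes in control and FGF18-treated cells, with a line for each of the 3 replicates, each point being the mean of 2 arrays. Lines of NBL1 and TGFB1 slope upward in every replicate, whereas the lines of BMP2 run in both directions. Replicate 1 is lowest for NBL1 in both conditions.

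The receptors had ratios below 0 by their brightest probes, and none passed. BMPR1A is a widely expressed type I receptor. Its control levels were 9.90, 10.02 and 9.66 and its levels with FGF18 were 9.88, 9.81 and 9.29, so the groups overlapped. The ratios were -0.025, -0.21 and -0.37, a mean of -0.20 ± 0.17 (n = 3), with a 95% interval from -0.48 to 0.07 and an adjusted p of 0.986 in limma. Its swapped arrays differed by at most 0.07, the smallest such gap of the 10 genes, and its means were -0.21 where FGF18 carried Cy5 and -0.20 where the control did. BMPR1B is a type I receptor known for its part in setting ovulation rate in sheep. In control cells it lay at 9.86, 9.85 and 9.92, and with FGF18 at 9.92, 9.31 and 9.77, so that replicate 2 alone held most of the difference. The mean was -0.21 ± 0.31 (n = 3), with replicates at 0.06, -0.54 and -0.15 and a 95% interval from -0.63 to 0.22. By dye it was -0.06 where FGF18 carried Cy5 and -0.36 where the control did. BMPR2, a type II receptor for BMPs, lay at 8.70, 7.70 and 8.49 in control cells and at 8.42, 8.02 and 8.15 with FGF18. Its ratios of -0.28, 0.32 and -0.34 had a mean of -0.10 ± 0.37 (n = 3) and a 95% interval from -0.59 to 0.40. Without replicate 3 the mean was 0.024. Arrays of the 2 orientations gave -0.18 where FGF18 carried Cy5 and -0.013 where the control did.

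Other probes of the receptors did not give the same ratios. For BMPR1A the second probe, above background on 12 of 12 spots, had -0.014 ± 0.45, and the third, above background on 3 of 12 spots, had 0.06 ± 0.13. For BMPR1B they had 0.0053 ± 0.22 (11 of 12 spots above background) and 0.15 ± 0.12 (12 of 12). The second probe of BMPR2 was nearly as bright as the first, with mean log2 intensities of 8.27 and 8.28, and had -0.52 ± 0.79, while the third had -0.21 ± 0.15 with 2 of 12 spots above background. Averaged over all 3 probes, the ratio was -0.05 for BMPR1A, -0.016 for BMPR1B and -0.28 for BMPR2. In replicate 2 the brightest and second probes had opposite signs for all 3 receptors, at -0.21 and 0.50 for BMPR1A, -0.54 and 0.26 for BMPR1B, and 0.32 and -1.43 for BMPR2. In replicate 3 they had the same sign for all 3. Opposite signs were common across the array, in 43.8% of 2933 genes with 2 probes above background in replicate 2 and 42.7% in replicate 3. The median gap between such probes was 0.356 in replicate 2, 0.208 in replicate 1 and 0.123 in replicate 3. Of the receptors, BMPR2 had the widest gap in replicate 2, 1.75, and 2.56% of genes had a larger one. The gaps of BMPR1A and BMPR1B, 0.71 and 0.80, were exceeded by 23.8% and 19.5% of genes. Probe sequences were not used here, so the part of the transcript that each probe reads is not given.

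**Figure D3:**
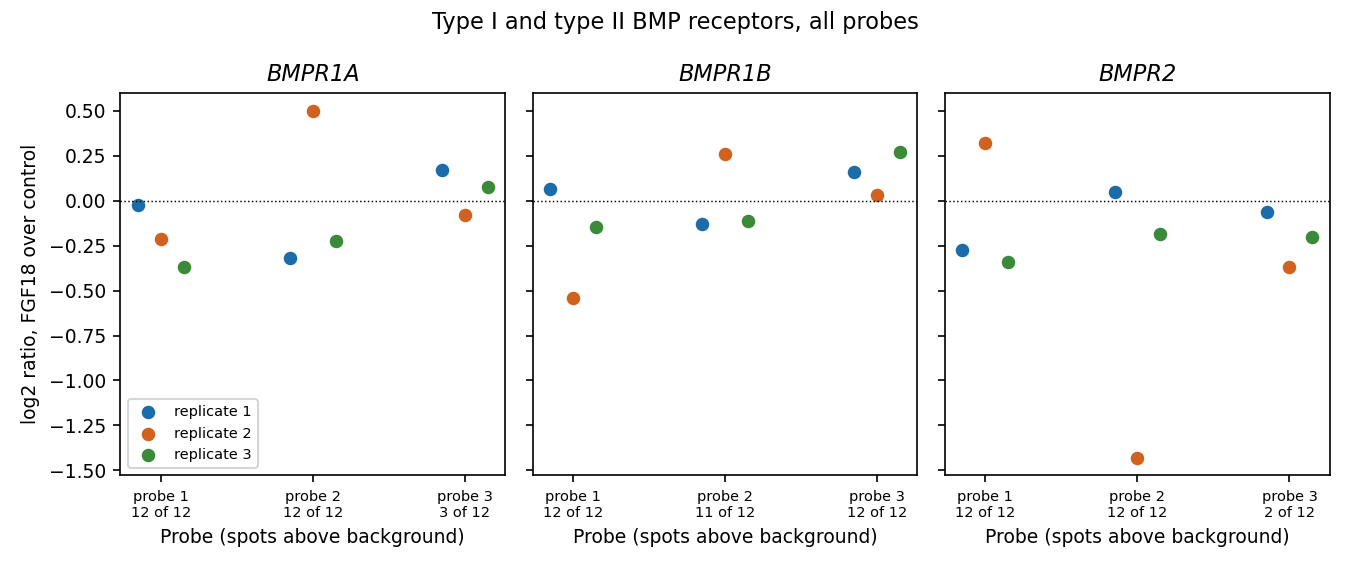
Log2 ratio of FGF18 over control (y axis) for the 3 probes of BMPR1A, BMPR1B and BMPR2, ordered by falling intensity, with the number of 12 spots above background under each and a point for each replicate. In replicate 2 the first and second probes of each receptor lie on opposite sides of 0, the widest for BMPR2 at 0.32 and -1.43.

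Of the antagonists, NBL1 had the highest ratio of the 10 genes. NBL1 (DAN) and GREM1 (gremlin) belong to a family of secreted cystine-knot proteins that bind BMPs and keep them from their receptors, gremlin with high affinity for BMP2 and BMP4. Control levels of NBL1 were 7.98, 10.16 and 9.69 in replicates 1, 2 and 3, and levels with FGF18 were 9.05, 10.39 and 10.22. Within each replicate FGF18-treated cells were higher, but replicate 1 was lower than the others in both conditions, so the groups overlapped. The ratios were 1.07, 0.23 and 0.53, a mean of 0.61 ± 0.43 (n = 3), or 1.53-fold, with a 95% interval from 0.04 to 1.18, an unadjusted p of 0.0406 and an adjusted p of 0.986 in limma. On the array of replicate 2 with the control in Cy5 it was 0.024, and on the other arrays it ran from 0.44 to 1.14. The mean was 0.72 where FGF18 carried Cy5 and 0.51 where the control did. Without replicate 1, which had the lowest level and the largest ratio, it was 0.38 with an unadjusted p of 0.0643, and without replicate 2 it was 0.80. The probe was above background on all 12 spots.

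GREM1 was at the background, above it on 2 arrays in each condition. Its levels averaged 6.80 ± 0.04 with FGF18 and 6.74 ± 0.08 in control cells (SD, n = 3), with a ratio of 0.06 ± 0.05. The sign of the ratio differed with the dye, with -0.09 on arrays with FGF18 in Cy5 and 0.21 on arrays with the control in Cy5. The term for dye orientation in limma had an adjusted p under 0.05 for 0 of 10 members, where 0.433% of genes had one, and an unadjusted p under 0.05 for 1, GREM1, where 17.9% of genes had one.

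**Figure D4:**
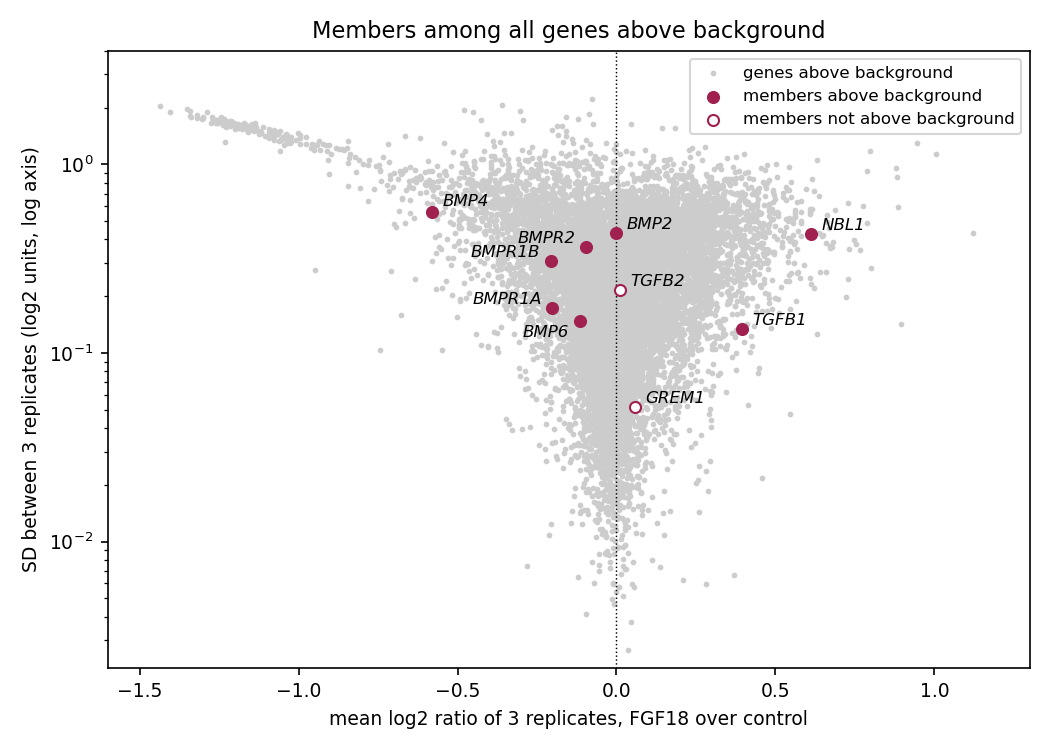
Mean log2 ratio of FGF18 over control (x axis) against the SD between 3 replicates (y axis, log scale) for all 12200 genes above background (grey) and the 10 members (red; open where not above background). BMP4 and NBL1 lie toward the edges of the cloud with SDs of 0.56 and 0.43, TGFB1 combines 0.40 with an SD of 0.13, and the other members lie within its bulk.

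The spread between replicates was set against that between swapped arrays. For 7 of the 10 genes, BMP2, BMP4, TGFB2, BMPR1A, BMPR1B, BMPR2 and NBL1, the range between replicates exceeded the largest gap between the 2 arrays of a replicate. It was at least 2 times that gap for 6 of them, all but BMPR1B. For TGFB1, BMP6 and GREM1 the range between replicates was below the largest such gap. The matching shares over all genes are not given, so these counts do not set the members apart. TGFB2 is counted although no spot of it was above background. The order of the replicates also differed by gene. Replicate 2 held the lowest ratio of BMP2, BMP4, BMPR1B and NBL1, and the highest of BMP6, TGFB1, TGFB2, BMPR2 and GREM1, while for BMPR1A it lay between the other two.

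Other genes of the pathway were read from 5 lists of 84 genes, of which 76 were read, 58 of them above background, and the other 8 were not analysed here. None passed with limma over all genes (0 of 76, where 0% of all genes passed). At an unadjusted p under 0.05 there were 3 of 76 (3.95%, where 3.49% of all genes reached it), 2 higher and 1 lower, and with median centring 0 of 76. In all 3 replicates 10 were higher and 10 lower, where 12% of all genes were higher and 12% lower. The median ratio of the 76 genes was -0.0099. On the arrays with the control in Cy5 alone it was 0.024, so it has no settled sign.

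Of 18 other ligands, 7 had a mean ratio above 0 and 11 below, with a median of -0.016, and 10 were above background. The median was 0.07 on the arrays with the control in Cy5 alone, so it has no settled sign. GDF11, a ligand of activin type receptors, had -0.33 ± 0.28. GDF10 had -0.13 ± 0.22 by its brightest probe, with other probes not above background, and BMP7, a theca-derived ligand in the rat ovary, had -0.24 ± 0.46. Of 14 other receptors and co-receptors, 8 lay above 0 and 6 below, with a median of 0.04. CD109, a co-receptor that inhibits TGF-beta signalling, had 0.17 ± 0.03 with an unadjusted p of 0.0489. TGFBR2, the type II receptor of TGF-beta, had 0.37 ± 0.48 by its brightest probe, with 0.92 in replicate 2, and its other probes were not above background. ENG, the co-receptor endoglin, had -0.15 ± 0.16. The sign for ENG differed with the dye, its mean lying above 0 where FGF18 carried Cy5 and below 0 where the control did. Limma's term for orientation had an unadjusted p of 0.0067 and an adjusted p of 0.116 for ENG.

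Of 18 other antagonists and latency proteins, 7 lay above 0 and 11 below, with a median of -0.05. THBS1, thrombospondin, an activator of latent TGF-beta, had the smallest unadjusted p of all 76 genes, 0.00647, with -0.66, -0.50 and -0.35 in replicates 1, 2 and 3. Its mean was -0.50 ± 0.15 with a 95% interval from -0.76 to -0.25 and an adjusted p of 0.986 in limma. DCN, a matrix proteoglycan that binds TGF-beta and also a marker on the theca and stroma list, had 0.14 ± 0.09. LTBP3, a latent TGF-beta binding protein, had -0.38 ± 0.51 by its brightest probe and 0.08 and 0.09 by its others. Of 17 SMADs and SMAD regulators, 11 lay above 0 and 6 below, with a median of 0.07. SMAD7, the inhibitory SMAD of TGF-beta signalling, had 0.21 ± 0.16 with 3 arrays above background in each condition. SMAD1, which carries BMP signals, had -0.21 ± 0.20, and SMURF2, a ubiquitin ligase for SMADs and receptors, had 0.12 ± 0.05.

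Of 10 target genes, 4 lay above 0 and 6 below, with a median of -0.02 and a mean of 0.05, which differ in sign. With median centring of arrays the median was 0.027, so it has no settled sign either. TSC22D1, a gene first described as induced by TGF-beta, had 0.36, 0.82 and 0.25 in replicates 1, 2 and 3, a mean of 0.47 ± 0.30 with an unadjusted p of 0.0346. Its other probe, above background on every array, gave -0.12 ± 0.59. COL1A2, a collagen chain, had 0.09 ± 0.10, and ID2, an inhibitor of differentiation induced by BMPs, had 0.22 ± 0.55. All ratios of these lists are over 3 replicates.

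**Figure D5:**
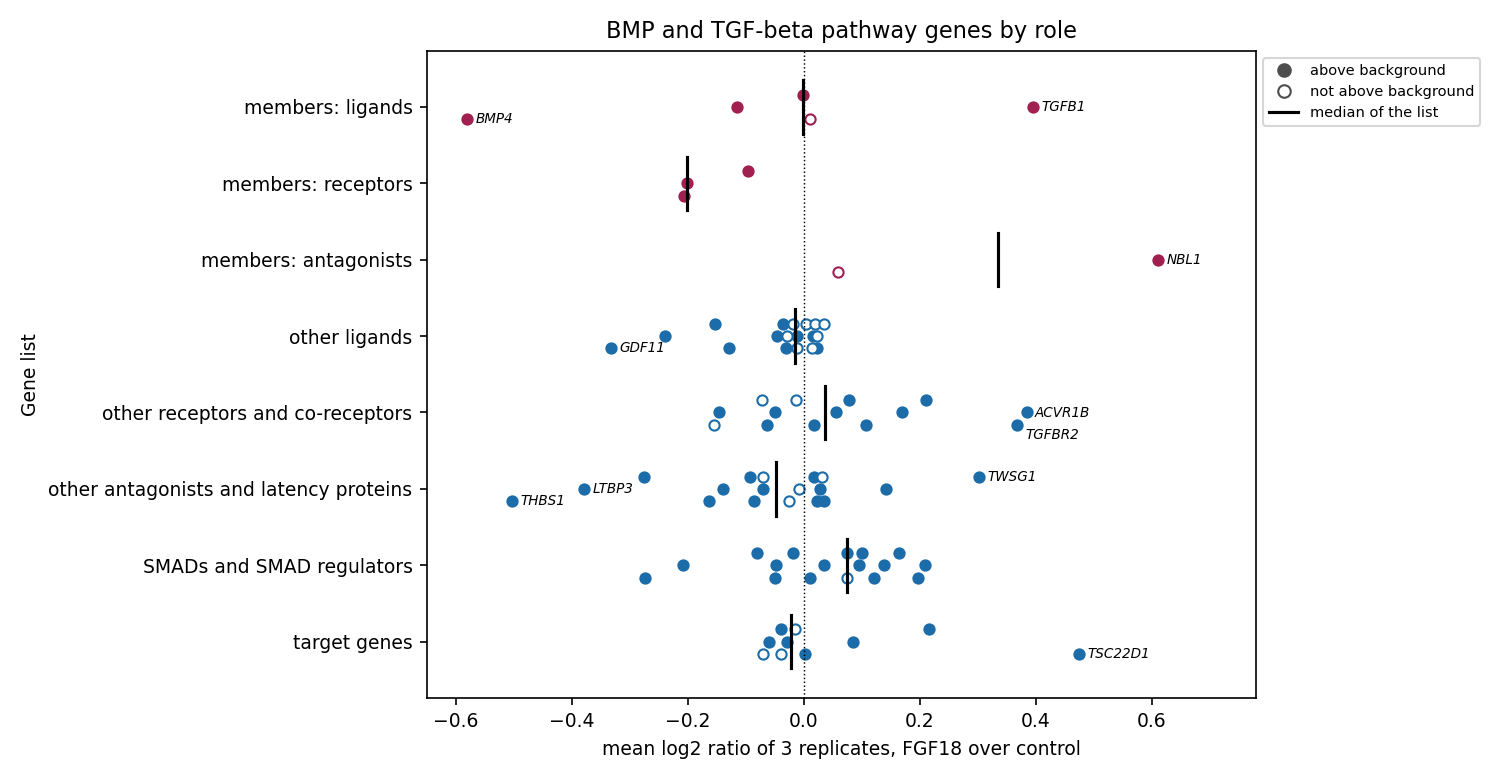
Mean log2 ratio of 3 replicates of FGF18 over control (x axis) for each gene of the members (red) and of the other pathway lists (blue), in rows by role, with filled points for genes above background and a black tick at each list's median. Medians of the 5 other lists lie between -0.05 and 0.07, and the labelled genes are those beyond 0.3 in either direction.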

How the data were processed

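Per the labels' protocols, total RNA was amplified in T7 rounds and labelled chemically with Cy3 or Cy5. Per the file headers, the deposited scanner files hold spot and local background intensity values at both wavelengths, not normalised. How the authors made their deposited log2 ratios is not stated. On all 6 arrays these ratios correlated at 1 with values from plain subtraction and loess, as FGF18 over control, with medians from -0.00375 to 0.0019.

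R 4.3.3 and limma 3.58.1 were used. Normexp (offset 50) corrected the background, and loess (span 0.3) normalised each array, giving the 1418 control spots no weight. The offset shrinks ratios of dim probes. After ratios were given 1 direction, the 2 swapped arrays were averaged per replicate, and lmFit with an intercept and eBayes was run over 15229 genes with Benjamini-Hochberg adjustment. All p-values come from limma. For 1 gene, an exact sign-change test of 3 replicates cannot go below p = 0.25. Levels were taken after Aquantile normalisation between arrays. Intervals are limma's 95% intervals.

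Equal numbers in the titles mark the dye swap of 1 replicate here, and the design text calls the replicates biological without naming their animals or cultures. Their deviations from the mean of their orientation correlated at 0.921, 0.932 and 0.791. Going by the slide and area numbers of the deposited scans, the 2 orientations lay on different slides, and dye and slide cannot be told apart.

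Of 43794 gene probes, 21790 had 1 symbol in the platform annotation, 0 had several and 22004 had none. Of the symbols, 14114 were current in RefSeq (ARS-UCD2.0), 1019 were older synonyms and 96 were not found there. Genome positions are left out because no build is named. All 10 members are described with every probe. Of the other pathway genes, up to 3 per list with the smallest unadjusted p among genes above background were named. Pathway genes named outside this rule were chosen after their values were seen. The members and lists were chosen with earlier results of these data known. The fit was tested on simulated data. Alternatives changed the background correction, normalisation, filter, probe rule, variance prior and treatment of replicates and dyes.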

Additional observations from a re-analysis of the deposited data

Results flagged for a closer look

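The ratio of GREM1 differed with the dye orientation. All 3 arrays with FGF18 in Cy5 gave a ratio below 0 and all 3 with the control in Cy5 a ratio above 0, a difference of -0.30 (FGF18 in Cy5 minus control in Cy5). Limma's term for orientation had an unadjusted p of 0.0181 and an adjusted p of 0.173, so it did not pass. The spots lay near background, above it on 2 of 6 arrays in each condition.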

How the results depend on the processing

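Under 17 alternative settings and 1 more chosen after seeing the data, which leaves out the array with the control in Cy5 of replicate 3 (45.7% of its Cy3 spots above background), limma called 0 genes, 0 members and 0 other pathway genes. The dye term, recomputed under the 5 settings of background correction and normalisation, passed for 0 members. At an unadjusted p under 0.05 there were 353 to 1718 genes and 1 to 4 members. The lowest adjusted p of a member was 0.171, for TGFB1 with the 6 arrays taken as independent. With the replicate block, 6 arrays, a dye term and a correlation of 0.816 within replicates, 0 members passed, 3 had an unadjusted p under 0.05, and the lowest adjusted p of a member was 0.773. Of 178 member ratios so recomputed, 168 kept their sign. Aquantile, the filter on dim probes, the variance prior and both fits of 6 arrays leave the ratios as they are. Signs could not change under these settings, nor under averaging over probes for genes with 1 probe, so the count overstates stability. BMP2, at -0.0014, became 0.0063 with no background correction, 0.066 with median centring, 0.12 with FGF18 in Cy5 only and 0.046 without that array of replicate 3. GREM1 became -0.091 with FGF18 in Cy5 only and -0.0029 without that array, and TGFB2 became -0.031 with the control in Cy5 only. Leaving out each replicate in turn gave -0.20 to 0.23 for BMP2, -0.093 to 0.12 for TGFB2 and -0.31 to 0.024 for BMPR2. Without 1 replicate or that array GREM1 ran from -0.0029 to 0.087. The cause of these changes was not tested. Without replicate 3 the unadjusted p was 0.078 for TGFB1 and 0.126 for NBL1. Signal over background limits TGFB1, TGFB2 and GREM1.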

Other observations

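Some known targets of BMP signalling differed in sign between replicates. They were singled out after their values were seen, so no test was run. ID1, an inhibitor of differentiation that BMPs induce through SMAD1 and SMAD5, had -0.85, 0.50 and 0.16 in replicates 1, 2 and 3. ID3 had -0.38, 0.26 and 0.03, and BAMBI, a pseudoreceptor induced by BMPs, had -0.42, 0.64 and -0.14. SMAD6, the inhibitory SMAD of BMP signalling, had -0.75, 0.14 and -0.21. The sign for SMAD6 also differed with the dye, its mean lying below 0 where FGF18 carried Cy5 and above 0 where the control did. All 4 genes were lower with FGF18 in replicate 1 and higher in replicate 2, and each was above background on all 12 spots. Their means were -0.06 ± 0.70 for ID1, -0.03 ± 0.32 for ID3, 0.03 ± 0.55 for BAMBI and -0.27 ± 0.45 for SMAD6. Not all targets did this: of the 10 target genes read, 2 were above 0 in every replicate and 2 below. Across all probes above background, replicates 1 and 2 correlated at -0.239. The share of all genes with the same change of sign is not given.

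LTBP1 and TGFB3 had the highest ratio in replicate 1 and the lowest in replicate 2, the reverse of ID1 and ID3. LTBP1, which holds latent TGF-beta in the matrix, had 0.67, -0.85 and 0.28 in replicates 1, 2 and 3. TGFB3 had 0.59, -0.55 and 0.0032, beside the 0.40, -0.46 and 0.06 of BMP2. In contrast, ACVR1B and TWSG1 were lowest in replicate 1 and highest in replicate 2, as ID1 and ID3 were. Neither order was limited to the genes named, since TGFBR3, PPM1A and FSTL1 had the order of ID1, and BMP1 that of LTBP1. ACVR1B, an activin type I receptor, had 1.11 in replicate 2 and -0.09 and 0.14 in replicates 1 and 3. TWSG1, a BMP binding protein, had 0.81 in replicate 2 and 0.01 and 0.08 in the others. These too were chosen after their values were seen. The share of all genes with either order of replicates is not given. With 3 replicates no correlation between genes can be judged, and a shared pattern was not tested.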
